A study of Mus musculus with 12 samples.

Results

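The 200 brightest olfactory receptor genes of the mouse olfactory bulb (OB) were examined, out of 1080 olfactory receptor genes measured on the array. A receptor gene was taken as a probeset with a single platform symbol of the form Olfr followed by a number, and each of the 1080 genes had 1 probeset. The genes were ordered by mean log2 intensity over all 12 arrays and the first 200 were kept, so the members were chosen by their measured brightness, which is given here as a description. None of the 200 was removed by a filter, and each is counted in every comparison below.

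The OBs came from Tg2576 transgenic mice and wild-type (WT) littermates, all female, with 3 mice per group at 2 and at 6 months of age and 1 array per mouse. The 4 groups were Tg2576 at 6 months, WT at 6 months, Tg2576 at 2 months and WT at 2 months. Tg2576 mice overproduce a human amyloid precursor protein (APP) with the Swedish double mutation, driven by the hamster prion protein promoter rather than by a promoter restricted to olfactory cells, on a mixed C57BL/6 and SJL background. RNA of the whole OB was hybridized to Affymetrix Mouse Clariom S arrays, and values are log2 intensities after robust multi-array averaging (RMA), in which a difference of 1 stands for a doubling.

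Olfactory receptors are G protein-coupled receptors that odorants bind on the cilia of sensory neurons in the nasal epithelium. Each mature sensory neuron expresses a single receptor gene from a single allele, and the axons of neurons with the same receptor converge on the same glomeruli of the OB. Receptor transcripts have been found in these axons, which form the outer nerve layer of the bulb, whereas receptor choice takes place in the nose. Class I receptors resemble those of fish and form a single large cluster in mammals, and class II receptors are specific to land vertebrates and lie in many clusters.

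The 200 receptor genes had means between 6.71 and 8.75 on the log2 scale, with a median of 7.17, against a median of 5.44 for the other 880 receptor genes. They were still dim: the median over all 22206 gene probesets was 8.25, and only 8 of the 200 were brighter than that. Of the 200, 15 had a mean of 8 or more, 32 lay between 7.5 and 8, 88 between 7 and 7.5, and 65 under 7. Probesets of Y-linked genes, which female mice do not carry, had a median of 5.44 and a 90th percentile of 7.12, and 113 of the 200 receptor genes exceeded that percentile, although the brightest Y-linked probeset reached 13.47. The 23 background control probesets of the array had an upper quartile of 7.80, which 27 of the 200 exceeded, and a highest value of 8.99, which none of the 200 exceeded. Brightness alone thus did not set most of the 200 apart from the brighter background controls. The limit of 200 did not fall in a gap: the last 3 genes inside were Olfr147 (6.72), Olfr670 (6.71) and Olfr444 (6.71), and the next 3 outside were Olfr99 (6.70), Olfr1466 (6.69) and Olfr1188 (6.69). A probeset's intensity also depends on its probes, so the order is one of brightness and not of transcript number.

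**Figure D1:**
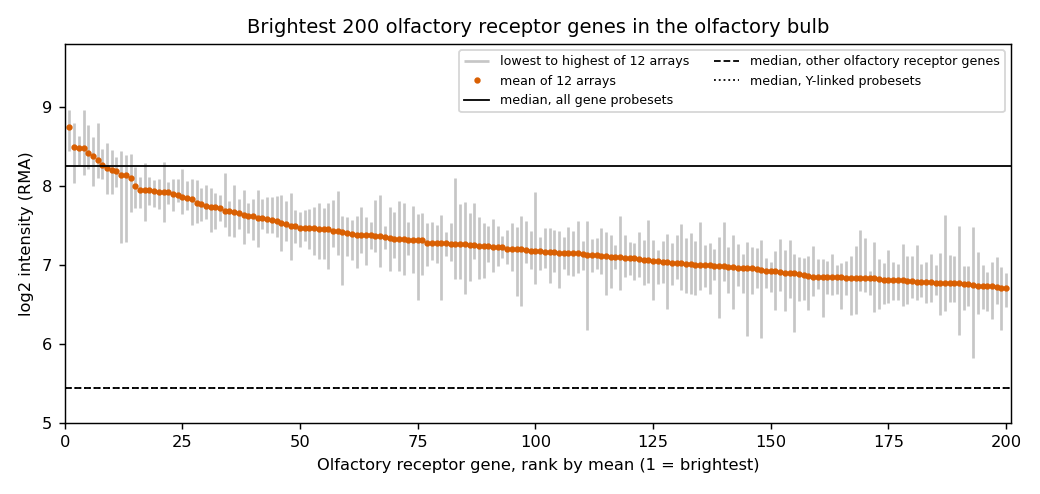
Mean log2 intensity over 12 arrays (points) and lowest to highest array (grey lines) of each of the 200 receptor genes, in order of brightness, with horizontal lines at the medians of all gene probesets (8.25), of the other receptor genes and of Y-linked probesets (both 5.44, drawn over each other). The order descends from 8.75 to 6.71 without a step at the lower end.

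The brightest gene was Olfr1412, a class II receptor of family MOR208 on chromosome 1, with a mean of 8.75. It measured 8.65, 8.74 and 8.77 in Tg2576 mice at 6 months, against 8.82, 8.45 and 8.70 in WT mice at 6 months. At 2 months it measured 8.77, 8.96 and 8.91 in Tg2576 mice, against 8.86, 8.59 and 8.79 in WT mice. The groups overlapped at both ages. Olfr1393, a receptor of family MOR256 on chromosome 11 that is also known from the kidney, came next with 8.49, and Olfr287 on chromosome 15 and Olfr460 on chromosome 6 followed with 8.48 each. Olfr982 (8.42), Olfr316 (8.38), Olfr55 (8.33), Olfr411 (8.26), Olfr1410 (8.23) and Olfr283 (8.20) completed the first 10. Within a gene, the lowest and highest of the 12 arrays lay 0.38 apart for Olfr287 and Olfr411, and 0.82 apart for Olfr460.

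The sequence around the RefSeq start (GRCm38.p6, 250 bases before and 50 after) is shown for the brightest gene and for both genes that were called between genotypes at 6 months, because the windows differ in base composition. Capitals mark the ATG at the annotated start and, in Olfr316, the letters TATAAA. The window of Olfr1412 is chr1:92588082-92588381, plus strand, with 53.7% G and C. That of Olfr316 is chr11:58757417-58757716, plus strand, with 41.3% G and C. That of Olfr113 is chr17:37575372-37575671, minus strand, with 32.3% G and C.
Olfr1412: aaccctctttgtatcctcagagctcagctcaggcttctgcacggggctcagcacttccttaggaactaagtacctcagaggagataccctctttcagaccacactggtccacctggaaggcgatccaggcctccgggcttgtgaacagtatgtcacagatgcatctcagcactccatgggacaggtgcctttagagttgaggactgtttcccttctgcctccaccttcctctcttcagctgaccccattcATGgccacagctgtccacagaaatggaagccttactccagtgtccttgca
Olfr316: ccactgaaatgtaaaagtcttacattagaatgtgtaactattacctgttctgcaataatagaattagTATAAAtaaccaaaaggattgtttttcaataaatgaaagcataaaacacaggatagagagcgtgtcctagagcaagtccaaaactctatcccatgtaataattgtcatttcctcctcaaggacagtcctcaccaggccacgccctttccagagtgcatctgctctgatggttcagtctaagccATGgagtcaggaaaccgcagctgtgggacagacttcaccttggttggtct
Olfr113: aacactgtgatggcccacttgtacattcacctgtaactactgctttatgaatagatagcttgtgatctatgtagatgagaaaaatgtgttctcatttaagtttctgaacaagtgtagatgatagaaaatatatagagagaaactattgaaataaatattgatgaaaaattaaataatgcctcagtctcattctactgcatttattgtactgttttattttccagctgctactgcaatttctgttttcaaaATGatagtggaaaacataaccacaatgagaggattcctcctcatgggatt

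A window was found for 168 of the 200 genes and for 753 of the other 880. The annotated start was an ATG in 75% of the windows of the 200 and in 72.6% of those of the other receptor genes, against 6.75% of 27025 windows of all genes, so that in most of these windows the annotated start is the start codon. The G and C share had a median of 40% in the 200, against 34.3% in the other receptor genes and 52.7% in all genes. Among the 200, it was 41.7% in the brightest 50, 40.7% and 40.3% in the next 2 sets of 50, and 36.3% in the dimmest 50. The letters TATAAA, searched on both strands, were present in 27.4% of the windows of the 200, in 44.4% of the other receptor genes and in 14.2% of all genes. TAATTA, a core motif of homeodomain proteins such as Lhx2, was present in 13.1%, 19.8% and 5.31% of the same sets, and CCCNNGGG, a core motif of Ebf proteins, in 4.76%, 2.52% and 13.4%. Each motif was counted by itself, overlaps included, and the counts were not corrected for base composition. Since most receptor windows were placed on the start codon, they need not hold the promoter. The shares in all genes, whose windows were mostly placed otherwise, are therefore not a like reference.

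By class, 28 of the 200 were class I and 165 class II, and the class of 7 was not given. The 28 were 23.3% of the 120 class I genes measured and the 165 were 17.5% of the 941 class II genes. The class I counts took in family MOR0, with 3 genes measured, of which Olfr455 on chromosome 6 was among the 200. MOR0 was taken in by the limit on the family number alone, and its class was not checked. The share of receptor genes that reached the 200 differed widely between chromosomes. On chromosome 11 it was 33 of 78 genes (42.3%), on chromosome 4 it was 12 of 23 (52.2%) and on chromosome 6 it was 14 of 27 (51.9%). On chromosome 2, which holds the largest number of receptor genes measured, 21 of 282 (7.45%) reached it, and on chromosome 9 it was 9 of 129 (6.98%). Chromosome 7 held the largest number of the 200, 44 of 230 (19.1%), and neither the 6 receptor genes on the X chromosome nor the 2 on chromosome 3 were among them.

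Some neighbours along a chromosome were both present. Of the 200 genes, 108 (54%) lay next to another of the 200 in the order of measured receptor genes, and 19 runs held 3 or more. The share for 200 genes placed without regard to position was not computed, so these counts are a description. The longest run held 8 genes on chromosome 1, Olfr1416 to Olfr12, with means between 7.13 and 8.75 and with Olfr1412 among them. The next held 6 genes on chromosome 6, Olfr460 to Olfr455, between 6.92 and 8.48. By sequence family, all 5 measured genes of MOR208 were present, as were 19 of 48 of MOR256, 8 of 16 of MOR103 and 5 of 8 of MOR259. In contrast, 3 of 31 genes of MOR202 and 3 of 36 of MOR171 were present. Close relatives can share probe sequence, and cross-detection between them was not tested.

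Of 16 receptors with a described ligand or locus, 14 were measured and 6 were among the 200. Olfr1507 and Olfr1508, the receptors MOR28 and MOR10 whose choice is governed by the H enhancer on chromosome 14, had means of 6.83 and 7.53. Olfr17, the P2 receptor used to trace axons to their glomeruli, had 6.97. The class I receptors Olfr544 and Olfr545, which bind dicarboxylic acids, had 7.27 and 7.59, and Olfr558, which binds short branched-chain fatty acids, had 6.73. None of these 6 was called in any of the 5 comparisons. The lowest p among them was that of Olfr545 in Tg2576 against WT mice at 6 months (log2 difference -0.24, SE 0.10, limma adjusted p = 0.552).

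The comparison of genotypes asks how early APP overproduction goes with altered OB expression. A call required an unadjusted limma p of less than 0.01 together with a fold of more than 1.3 or less than 0.7, and p-values were also adjusted over all 22206 probesets. The fold limits are unequal on the log2 scale, so that a gene must be further down than up to be called. At 2 months, 0 of the 200 receptor genes were called between Tg2576 and WT mice, against 0.572% of all probesets (0.401% higher and 0.171% lower in Tg2576 mice). At an unadjusted p under 0.05 there were 6, of which 5 were higher and 1 was lower in Tg2576 mice, or 3% against 6.32% of all probesets. The groups did not overlap for 10 genes that were higher and 5 that were lower in Tg2576 mice, that is 5% and 2.5%, against 5.23% and 4.73% of all probesets. The median log2 difference of the 200 was 0.029, beside 0.0060 over all probesets and 0.035 over the other receptor genes. Without Tg2576 replicate 3 at 2 months it was -0.0084.

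Markers of the leptomeninges, the membranes around the brain, had higher means in Tg2576 mice in the same comparison. Their mean over 10 genes lay between 8.44 and 9.11 in Tg2576 mice and between 7.90 and 8.38 in WT mice at 2 months. The Tg2576 minus WT difference was above 0 for 10 of 10 (median 0.46), and 3 were called higher (Omd, Ogn and Igf2), against 0.401% of all probesets. The limma adjusted p of these 3 was 0.762 each, and 0 of all probesets passed after adjustment at 2 months. The list was drawn with earlier results of these data known. The study itself names IGF2 and OGN among the differential interactors of APP at 2 months. The share called is therefore no test of the list. Omd was dim, between 4.37 and 6.22 over the arrays. Without Tg2576 replicate 3 at 2 months, 7 of the 10 were above 0 (median 0.22) and Igf2 was the one called, as it also was without WT replicate 1 at 2 months (median 0.26). At 6 months, 6 of the 10 were above 0 (median 0.068) and 0 were called, against 1.04% of all probesets. Between 6 and 2 months, 0 of the 10 were above 0 in Tg2576 mice (median -0.36) and 6 in WT mice (median 0.037). The part of these markers in the receptor values was not tested.

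At 6 months, 2 of the 200 were called between Tg2576 and WT mice (1%), against 1.04% of all probesets: Olfr316 was higher and Olfr113 lower in Tg2576 mice, where 0.644% of all probesets were higher and 0.401% lower. Another 13 had an unadjusted p under 0.05, so that 15 in all (7.5%) reached it, against 8.61% of all probesets. The groups did not overlap for 13 genes that were higher and 11 that were lower in Tg2576 mice, that is 6.5% and 5.5%, against 7.56% and 7.29% of all probesets. After adjustment none of the 200 passed at either age, and the lowest adjusted p was 0.408 at 6 months and 0.762 at 2 months. The median difference of the 200 was 0.029 at 6 months, beside 0.0067 over all probesets and -0.020 over the other receptor genes. Among the other 880 receptor genes, 0.341% were called at 2 months and 1.02% at 6 months. The shares called were thus close to or under those of all probesets. The number of arrays limits the size of difference that could be seen.

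For both of the 2 called genes, the 3 WT arrays at 6 months lay apart from the other 9, in opposite directions. Olfr316, a class II receptor of family MOR285 on chromosome 11, measured 8.54, 8.44 and 8.54 in Tg2576 mice at 6 months, against 8.18, 8.01 and 8.07 in WT mice at 6 months. At 2 months it measured 8.48, 8.43 and 8.63 in Tg2576 mice, against 8.56, 8.45 and 8.27 in WT mice. The 3 WT arrays at 6 months lay below the other 9, and the groups overlapped at 2 months. Tg2576 minus WT gave 0.42 (SE 0.10, limma adjusted p = 0.408) at 6 months and 0.08 at 2 months. These genotype differences themselves differed by 0.34 (SE 0.15, limma adjusted p = 0.842). Of its run of 5 neighbours on chromosome 11, Olfr318 to Olfr314, 4 were above 0 in the genotype comparison at 6 months, and Olfr316 was the one called.

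Olfr113, a class II receptor of family MOR218 on chromosome 17, measured 6.79, 7.34 and 6.77 in Tg2576 mice at 6 months, against 7.54, 7.93 and 7.67 in WT mice at 6 months. At 2 months it measured 6.92, 6.93 and 6.82 in Tg2576 mice, against 6.76, 7.23 and 7.37 in WT mice. The WT arrays at 6 months were above the other 9, and at 2 months 1 WT array was the lowest of all 12. Tg2576 minus WT gave -0.75 on the log2 scale (SE 0.17, limma adjusted p = 0.408) at 6 months and -0.23 (SE 0.17, limma adjusted p = 0.892) at 2 months. In WT mice Olfr113 was also called between ages, higher at 6 than at 2 months by 0.59 (SE 0.17, limma adjusted p = 0.261). In Tg2576 mice that difference was 0.08. The test between the genotype differences at the 2 ages gave Olfr113 no unadjusted limma p under 0.05. The genotype comparison at 6 months and the age comparison in WT mice share the WT arrays at 6 months.

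Olfr113 lies beside Olfr111 and Olfr112, which are also among the 200. Olfr111 measured 7.20, 7.21 and 7.08 in Tg2576 mice at 6 months, against 7.37, 7.71 and 7.60 in WT mice at 6 months. At 2 months it measured 6.87, 6.82 and 6.98 in Tg2576 mice, against 7.19, 8.11 and 7.09 in WT mice. The genotypes did not overlap at either age, and Olfr111 was not called (log2 difference -0.40 at 6 months, limma adjusted p = 0.607; -0.57 at 2 months, limma adjusted p = 0.762). Olfr112, of the same family as Olfr113, measured 7.09, 7.20 and 7.08 in Tg2576 mice at 6 months, against 7.22, 7.19 and 7.78 in WT mice at 6 months. At 2 months it measured 7.15, 7.18 and 7.12 in Tg2576 mice, against 7.20, 7.43 and 7.33 in WT mice. Its groups overlapped at 6 months and not at 2 months, with differences of -0.27 and -0.17. All 3 neighbours thus had a negative Tg2576 minus WT difference at both ages, with a median of -0.40 at 6 months and -0.23 at 2 months, and 1 of the 6 differences was called. Other runs of neighbours also lay wholly on 1 side of 0 at both ages. These were Olfr519 to Olfr524 (4 of 4 above 0), Olfr54 to Olfr30 (4 of 4) and Olfr1382 to Olfr1380 (3 of 3). Cross-detection between neighbours was not tested.

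**Figure D2:**
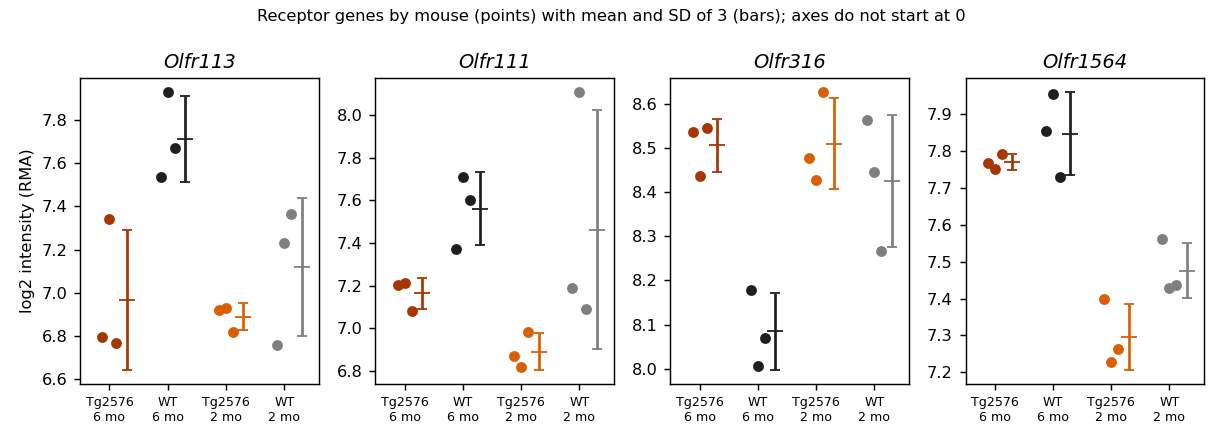
Log2 intensity of Olfr113, Olfr111, Olfr316 and Olfr1564 in each mouse (points), with the mean and SD of the 3 mice of a group (bars), by genotype and age. The WT mice at 6 months lie apart for Olfr113 (7.54 to 7.93) and Olfr316 (8.01 to 8.18), and all mice at 6 months lie above all mice at 2 months for Olfr1564.

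The genotype difference was compared between ages in the same fit, with no fold limit for a call. Of the 200 genes, 0 were called, against 0.779% of all probesets (0.261% above and 0.518% below 0), and 5 had an unadjusted p under 0.05 (2.5%), against 5.71% of all probesets. These 5 were Olfr1393 (0.52), Olfr316 (0.34), Olfr566 (-0.31), Olfr1046 (-0.36) and Olfr239 (-0.54), named because their number was small and chosen after their values were seen. Olfr1393 measured 8.52, 8.69 and 8.67 in Tg2576 mice at 6 months, against 8.41, 8.04 and 8.29 in WT mice at 6 months. At 2 months it measured 8.25, 8.39 and 8.80 in Tg2576 mice, against 8.65, 8.67 and 8.53 in WT mice. The WT mice lay below the Tg2576 mice at 6 months, and the groups overlapped at 2 months. Among the other 880 receptor genes, 1.36% were called, a higher share than the 0.779% of all probesets. The median of the 200 was 0.011, beside 0.0021 over all probesets and -0.051 over the other receptor genes.

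Between ages, 1 of the 200 was called in Tg2576 mice (0.5%), against 0.527% of all probesets, and 1 in WT mice (0.5%), against 1.74% of all probesets. The gene called in Tg2576 mice was Olfr1564 on chromosome 17, whose family was not given, and that in WT mice was Olfr113, both higher at 6 months. Among all probesets, 0.36% were called higher and 0.167% lower at 6 months in Tg2576 mice, and 1.45% higher and 0.293% lower in WT mice. At an unadjusted p under 0.05 there were 8 genes in Tg2576 mice (4% against 5.62% of all probesets) and 12 in WT mice (6% against 12%). None of the 200 passed after adjustment, beside 0.0% of all probesets in Tg2576 mice and 0.0045% in WT mice, and the lowest adjusted p was 0.651 in Tg2576 mice and 0.243 in WT mice. In Tg2576 mice the ages did not overlap for 6 genes that were higher and 14 that were lower at 6 months, that is 3% and 7%, against 7.24% and 6.96% of all probesets. In WT mice these counts were 4 and 11, that is 2% and 5.5%, against 7.22% and 6.16%. Among the other 880 receptor genes, 0.114% were called in Tg2576 mice and 0.795% in WT mice. The median log2 difference of the 200 between 6 and 2 months was -0.046 in Tg2576 mice and -0.053 in WT mice. Over all probesets it was -0.0031 in Tg2576 mice and -0.0070 in WT mice, and over the other receptor genes -0.057 in Tg2576 mice and -0.0018 in WT mice.

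Olfr1564 had the same direction in both genotypes. In Tg2576 mice it measured 7.77, 7.75 and 7.79 at 6 months, against 7.40, 7.23 and 7.26 at 2 months. In WT mice it measured 7.85, 7.95 and 7.73 at 6 months, against 7.56, 7.43 and 7.44 at 2 months. Each of the 6 mice at 6 months was above each of the 6 at 2 months. The share of all probesets that separate in this way is not given, and the gene was singled out by its call. The log2 difference between 6 and 2 months was 0.47 (SE 0.10, limma adjusted p = 0.651) in Tg2576 mice. In WT mice it was 0.37 (SE 0.10, limma adjusted p = 0.243), a fold change of 1.29 that fell just under the fold limit, with a limma p of 0.00171 before adjustment. The genotype difference of Olfr1564 did not change detectably between ages (0.10, SE 0.14, limma adjusted p = 0.927). Its neighbours Olfr55, Olfr239 and Olfr63 were not called in either genotype.

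**Figure D3:**
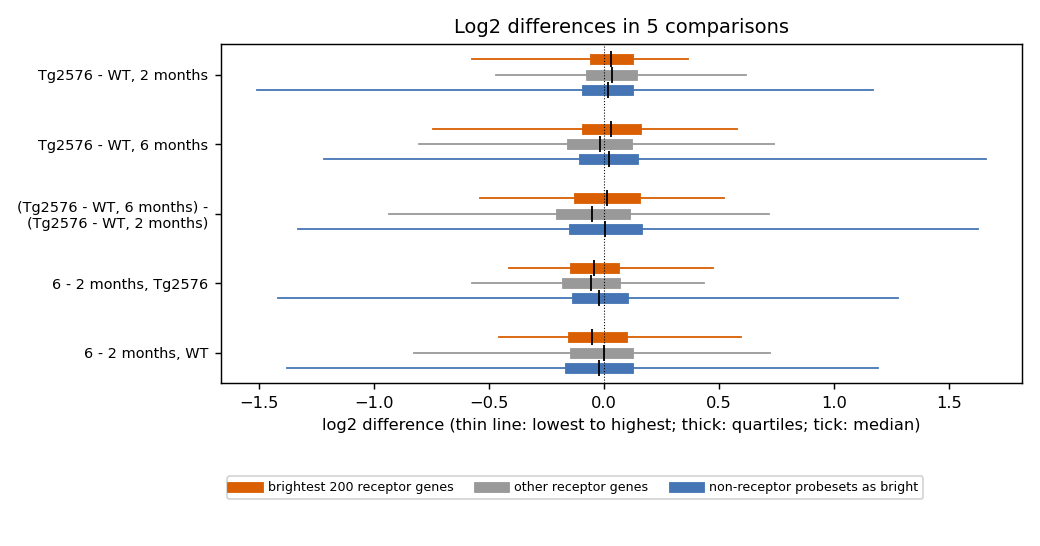
Log2 differences of the 200 receptor genes, of the other 880 receptor genes and of 7837 non-receptor probesets in the same range of brightness, in 5 comparisons (thin line from lowest to highest, thick line between quartiles, tick at the median). The medians of the 200 lie between -0.053 and 0.029, and the spans of the 3 sets overlap in every comparison.

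Class I and class II genes of the 200 differed little in the genotype comparisons, with MOR0 again counted as class I. The median Tg2576 minus WT difference at 6 months was -0.0017 for class I and 0.041 for class II. At 2 months it was 0.040 for class I and 0.029 for class II. Among the chromosomes with 10 or more of the 200, the median at 6 months lay between -0.077 (chromosome 17, 17 genes) and 0.18 (chromosome 19, 11 genes). The spread between mice was like that of other probesets. The residual SD had a median of 0.18 over the 200, beside 0.19 over the other receptor genes and 0.17 over the non-receptor probesets of the same brightness. Within groups, the median SD of the 200 was 0.12 in Tg2576 mice at 6 months, 0.19 in WT mice at 6 months, 0.15 in Tg2576 mice at 2 months and 0.12 in WT mice at 2 months.

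The median of the 200 per array lay between 7.09 and 7.28. Its group means were 7.18 ± 0.07 (SD, n = 3) in Tg2576 and 7.17 ± 0.07 in WT mice at 6 months, and 7.21 ± 0.10 in Tg2576 and 7.18 ± 0.05 in WT mice at 2 months. If each array held the highest value of a gene equally often, it would do so for 8.33% of them. Tg2576 replicate 3 at 2 months held the highest value of 54 of the 200 (27%), against 18.2% of the other receptor genes and 12.6% of non-receptor probesets of the same brightness. WT replicate 3 at 6 months held the lowest value of 57 (28.5%), against 17.4% and 13.6% of those sets. WT replicate 2 at 6 months held the highest value of 39 and the lowest of 44 (19.5% and 22%), and non-receptor probesets of the same brightness did so there in 15.4% and 23.2%.

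**Figure D4:**
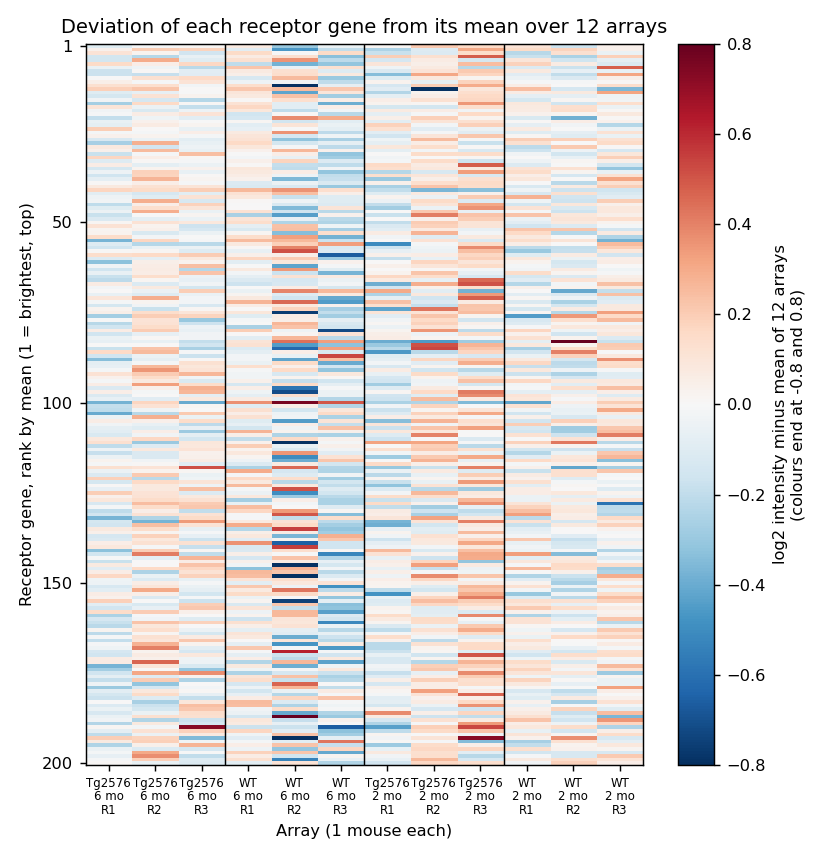
Log2 intensity of each of the 200 receptor genes (rows, brightest at the top) in each of 12 mice (columns), as the deviation from the gene's mean over the 12 arrays. Tg2576 replicate 3 at 2 months is mostly above the mean, WT replicate 3 at 6 months mostly below it, and WT replicate 2 at 6 months holds strong deviations in both directions.

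Of the 5 genes with the widest range over the 12 arrays, 4 had their lowest value in WT replicate 2 or 3 at 6 months. Olfr131 spanned 1.65, with its highest value of 7.48 in Tg2576 replicate 3 at 2 months and its lowest of 5.83 in WT replicate 2 at 6 months. Olfr1457 spanned 1.38 and Olfr1364 spanned 1.24, and their lowest values, 6.18 and 6.07, were also in WT replicate 2 at 6 months. Olfr1264 spanned 1.39, with its lowest value of 6.11 in WT replicate 3 at 6 months, and Olfr111 spanned 1.29 with its highest value of 8.11 in WT replicate 2 at 2 months. None of the 5 was called in any comparison.

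Probesets of other cell types and of the hybridization differed between the same arrays. All 9 markers of mature olfactory sensory neurons were measured, and their mean lay between 8.70 and 8.99 in Tg2576 mice at 6 months, 8.26 and 8.61 in WT mice at 6 months, 8.50 and 9.71 in Tg2576 mice at 2 months, and 8.56 and 8.92 in WT mice at 2 months. The highest was again Tg2576 replicate 3 at 2 months, where Omp, the olfactory marker protein of mature sensory neurons, reached 10.88 against 9.25 to 10.26 in the other 11 arrays. The Tg2576 minus WT difference of each of the 9 markers was above 0 at 6 months (median 0.43) and at 2 months (median 0.13), and 0 were called at either age, beside 1.04% and 0.572% of all probesets. The direction at 2 months rested on 1 array: without Tg2576 replicate 3 at 2 months, 0 of the 9 were above 0 (median -0.19). At 6 months, 9 of the 9 stayed above 0 without WT replicates 2 and 3 (median 0.25), and 7 did with the mean of the hybridization controls as a covariate (median 0.16). Between 6 and 2 months, 0 of the 9 were above 0 in WT mice (median -0.41) and 1 in Tg2576 mice (median -0.10). The genotype difference at 6 months and the age difference in WT mice share the WT arrays at 6 months. In bulk tissue, fewer axons or cells of a type and less RNA per cell cannot be told apart.

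The mean of 12 markers of nasal epithelium support cells and glands lay between 7.02 and 8.10 in Tg2576 mice at 6 months, 6.77 and 7.58 in WT mice at 6 months, 7.84 and 8.60 in Tg2576 mice at 2 months, and 7.63 and 8.0 in WT mice at 2 months. Cyp2g1, a cytochrome P450 of the olfactory mucosa, measured 12.08 in Tg2576 replicate 3 at 2 months, against 6.25 and 6.00 in WT replicates 2 and 3 at 6 months and 6.43 in Tg2576 replicate 1 at 6 months. Of the 12 markers, 3 (Cyp2g1, Cyp2a5 and Cbr2) were called lower at 6 than at 2 months in WT mice, against 0.293% of all probesets. Their limma adjusted p was 0.264, 0.282 and 0.250 in the same order. None of the 3 was called without WT replicates 2 and 3 at 6 months, where the differences were -1.26 for Cyp2g1, -0.69 for Cyp2a5 and -1.42 for Cbr2. In Tg2576 mice, Cyp2g1, Cyp2a5 and Cbr2 also had negative differences between 6 and 2 months (-1.77, -1.39 and -1.11). There 0 of the 12 markers were called, beside 0.527% of all probesets. Of the 12, 2 were above 0 in Tg2576 mice (median -0.33) and 1 in WT mice (median -0.22). Other markers of this list followed other arrays. Obp1a, an odorant-binding protein of nasal glands, measured 6.87 in Tg2576 replicate 2 at 6 months, against 4.34 to 4.85 in the other 11 arrays. Obp2a measured 7.23 in that array and 7.98 in Tg2576 replicate 2 at 2 months, against 5.39 to 5.79 in the other 10. Bpifb9b lay between 7.69 and 9.49, whereas Krt5, the keratin of basal cells, lay between 6.77 and 7.18. The means of 12 OB neuron markers lay between 11.40 and 11.63 in all arrays. The hybridization controls averaged 12.43 and 11.92 in WT replicates 2 and 3 at 6 months, against 11.09 to 11.54 in the other arrays. The part of these differences in the receptor values was not tested.

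**Figure D5:**
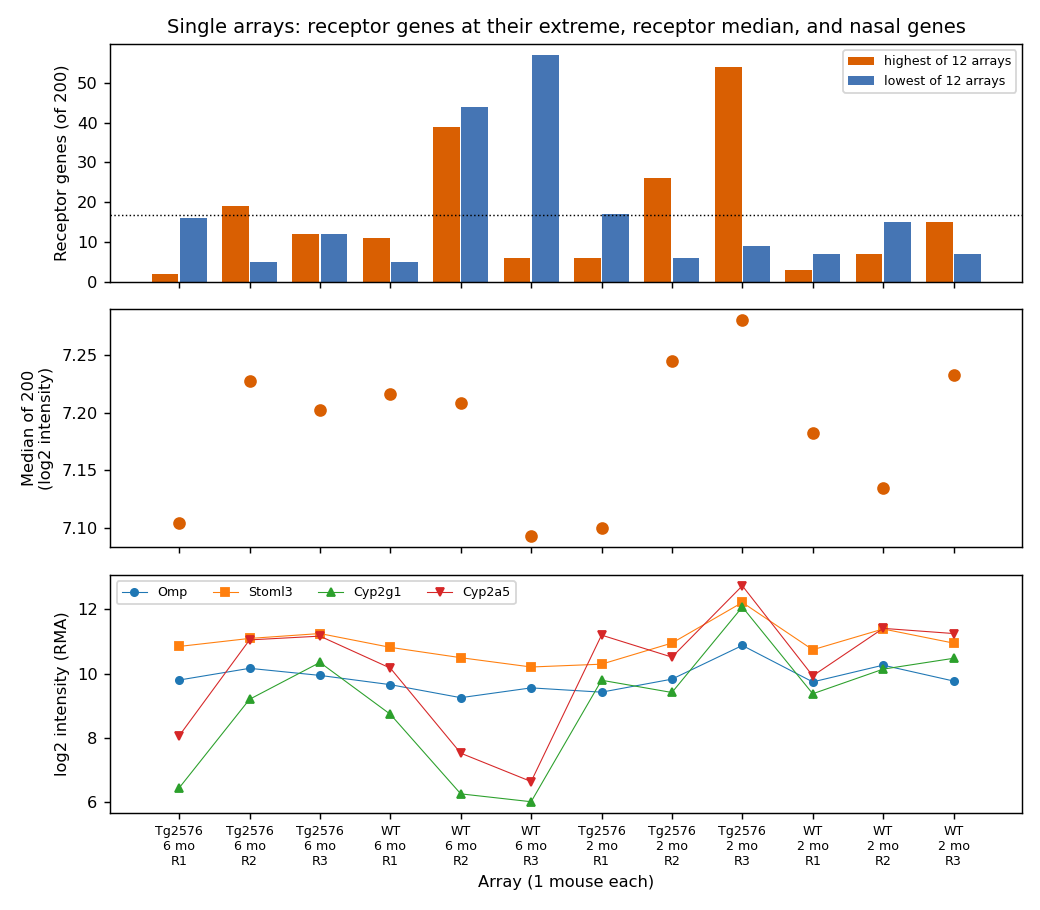
Per array, the number of the 200 receptor genes with their highest or lowest value there (top, dotted line at an equal share), the median of the 200 (middle) and the log2 intensity of the sensory neuron genes Omp and Stoml3 and of the nasal epithelium genes Cyp2g1 and Cyp2a5 (bottom). Tg2576 replicate 3 at 2 months holds 54 highest values and a Cyp2g1 value of 12.08, and WT replicate 3 at 6 months holds 57 lowest values and a Cyp2g1 value of 6.00.

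The comparisons of the 200 were refitted without these arrays. Without WT replicates 2 and 3 at 6 months together, neither Olfr316 (0.33) nor Olfr113 (-0.57) was called at 6 months, and Olfr113 was not called between ages in WT mice (0.42), with 1 array left in the group and its spread taken from the others. With the mean of the hybridization controls as a covariate these differences were 0.28, -0.49 and 0.36, and none was called. Without Tg2576 replicate 3 at 2 months alone, the counts called were 0 of 200 at 2 months and 3 of 200 between ages in Tg2576 mice, and the median difference between genotypes at 2 months was below 0, as given above.

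Among 13 genes of odorant transduction, which carry the signal from receptor to membrane current, 1 was called between genotypes at 6 months, against 1.04% of all probesets, and 0 in the other 4 comparisons, against 0.527% to 1.74%. This was Slc24a4, which encodes a sodium-calcium-potassium exchanger of the cilia and measured 8.70, 8.07 and 8.65 in Tg2576 mice at 6 months, against 7.98, 7.51 and 8.01 in WT mice (difference 0.64, SE 0.19, limma adjusted p = 0.428). Its call was lost without Tg2576 replicate 1 (0.53), Tg2576 replicate 3 (0.55) or WT replicate 2 at 6 months (0.48), and without WT replicates 2 and 3 together (0.49). Among 15 genes of receptor choice and trafficking, 1 was likewise called between genotypes at 6 months, against the same 1.04%, and 0 in the other comparisons. This was Emx2, a homeodomain factor of sensory neurons and of the developing brain, with 8.33, 8.23 and 8.59 in Tg2576 mice, against 7.97, 7.93 and 7.89 in WT mice (difference 0.45, SE 0.11, limma adjusted p = 0.408). Its call was lost without Tg2576 replicate 3 at 6 months (0.35) and without WT replicates 2 and 3 together (0.41). The receptor chaperones Rtp1 and Rtp2 and the adenylyl cyclase Adcy3 were not called in any comparison. Ebf3, of the list of receptor choice and trafficking, was just short of a call between ages in Tg2576 mice. Its log2 difference of -0.51 (SE 0.17, limma adjusted p = 0.848) missed the lower fold limit, with a limma p of 0.0094 before adjustment.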

How the data were processed

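Total RNA of 12 OBs (3 female mice in each of 4 groups, labelled by genotype and age) was hybridized to Clariom S arrays after a pico-scale amplification. The labels give 2 months for the younger mice, and a list of the animals gives 3 months. Deposited values were the authors' log2 intensities, per the labels made with RMA, and the version, aligner or build was not given in the sources used here. Starting from these log2 values, all 22206 gene probesets entered the fit with no filter, without the 6923 controls. Gene symbols came from the platform annotation and chromosomes, neighbours and start windows from RefSeq (GRCm38.p6), with all 1080 receptor genes matched by Entrez ID. Family and class followed the MOR names there, with families up to 42, MOR0 included, taken as class I.

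A fit of 4 group means over 12 arrays was made with limma 3.58.1 in R 4.3.3 (lmFit and eBayes), without covariates, and checked on simulated data. p-values were adjusted by the Benjamini-Hochberg method over all 22206 probesets. A call required an unadjusted p under 0.01, the limit in the study's methods for the arrays, and a fold above 1.3 or below 0.7, limits that were set here. Named genes were the 10 brightest, those called, those with a described ligand or locus, those at the limit of 200, the 5 with the widest range, and called or marker genes of the other lists. Lists of ensheathing glia (0 of 6 measured called in any comparison), immature sensory neurons (0 of 3) and leptomeninges were also run. The members and lists were chosen with earlier results of these data known. The p-values rest on 1 spread between single mice per probeset, pooled over the 4 groups and moderated by that of all probesets. The groups differed in spread, with a median SD of the 200 of 0.19 in WT mice at 6 months and 0.12 in WT mice at 2 months. Precision is limited by the number of arrays.

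Alternatives covered the samples in the fit, the variance prior, array weights, a filter on dim probesets, scaling, a replicate block, the hybridization controls, each array left out, the number of genes kept, the arrays that chose them, and the call limits. Refits of the other gene lists without single arrays, without both WT arrays or with the hybridization controls were added after the data were seen.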

Additional observations from a re-analysis of the deposited data

How the results depend on the processing

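Counts called over other gene sets or at other limits are not like for like, and shares are given above. Between genotypes at 2 months the count of 0 became 1 with a trended and robust variance prior or centring on the other receptor genes. It was 2 with array weights, 3 over all 1080 receptor genes and 6 at p under 0.05 with no fold limit. With replicate numbers as a block it was 1, and the block changed no other count by over 1.5 times. The numbers pair no mice by label, and same-numbered mice of different groups correlated between -0.22 and 0.18 in their deviations from group means, against -0.21 and 0.21 for other pairs. At 6 months the count of 2 became 1 with the filter on dim probesets, which left 8 of the 200, 0 with the hybridization controls as a covariate or without WT replicates 2 and 3 at 6 months, 0 after adjustment, 11 over all receptor genes and 15 at p under 0.05. For the difference between ages, the count of 0 became 1 with array weights or that centring, 2 in the brightest 300. It was 12 over all receptor genes and 5 at p under 0.05. Between ages in Tg2576 mice, the count of 1 became 0 with the dim filter, 3 with that centring, 2 over all receptor genes, 8 at p under 0.05 and 0 after adjustment. In WT mice the count of 1 became 0 with array weights, the dim filter, the covariate, without both WT arrays and after adjustment, 2 with cyclic loess, 2 with that centring, 8 over all receptor genes and 12 at p under 0.05.

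The median differences lay near 0 and their sign turned under some alternatives. With the dim filter they were -0.083 at 6 months, -0.067 for the difference between ages and 0.030 between ages in WT mice. Without WT replicates 2 and 3 at 6 months the difference between ages was -0.081, and centring on the other receptor genes gave 0.041 between ages in Tg2576 mice, the 1 turn in that comparison. At 2 months the sign also turned with that centring (-0.031) and without Tg2576 replicate 3 at 2 months (-0.0084). At 6 months it turned with the dim filter, without WT replicates 2 and 3 (-0.036), without WT replicate 3 (-0.011) and over all receptor genes (-0.011). Between ages in WT mice it turned with the dim filter, without WT replicates 2 and 3 (0.013) and without WT replicate 3 at 6 months (0.0041). The median of the difference between ages turned in 11 of 23 alternatives (-0.081 to -0.00022).

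Leaving out 1 array at a time gave 0 to 2 genes at 2 months (2 without WT replicate 3 at 2 months), 2 to 6 at 6 months (6 without WT replicate 1 at 6 months), 0 to 2 for the difference between ages (2 without WT replicate 3 at 6 months), 1 to 3 between ages in Tg2576 mice (3 without Tg2576 replicate 3 at 2 months) and 0 to 4 in WT mice (4 without WT replicate 1 at 6 months). The medians ranged, in the same order, from -0.0084 to 0.088, -0.011 to 0.071, -0.041 to 0.044, -0.090 to -0.013 and -0.080 to 0.0041. In these 12 fits Olfr316 (0.38 to 0.47) and Olfr113 (-0.93 to -0.64) kept their calls at 6 months, as did Olfr1564 in Tg2576 mice (0.44 to 0.52). Olfr113 between ages in WT mice (0.41 to 0.72) lost its call without WT replicate 1 at 2 months (0.41) or WT replicate 2 at 6 months (0.49), and with array weights (0.55). A mean over probesets of a gene was not run, since each receptor gene had 1. Choosing the 200 on arrays outside each comparison gave the same counts called in the 4 comparisons of 2 groups; it was not possible for the difference between ages, which uses all 12. With the hybridization controls as a covariate, Slc24a4 (0.38), Emx2 (0.39), Cyp2g1 (-1.93), Cyp2a5 (-1.65) and Cbr2 (-1.23) were not called; without single arrays these 3 nasal genes lost their call in 4, 5 and 2 of 12 fits. Causes of these changes were not tested.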
